A study of Salmo salar with 60 samples.

Results

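The comparison described here set 10 Atlantic salmon sampled after 3 days on a diet with soybean meal against 9 salmon sampled on day 0, just before the diet was changed. The 19 fish were chosen by the day in their sample titles, out of 60 arrays that also cover days 1, 2, 5 and 7. All fish were of the Sunndalsøra breed, weighed 500 to 600 g and were kept in seawater at 25 to 30 fish per tank. Both groups had first received a fishmeal diet with 563 g of fishmeal per kg for 7 days. The day 3 fish then received feed with 200 g of hexane-extracted soybean meal per kg, while the day 0 fish had eaten none. Each group came from 2 tanks, with 5 day 3 fish and 4 day 0 fish in tank 1, and 5 day 3 fish and 5 day 0 fish in tank 2. The tissue was about 20 mg of distal intestine, taken from fish with gut content along the whole intestine. RNA of each fish carried the dye Cy5, and a pool of 18 fish, 3 of each sampling day, carried Cy3 on every array.

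The distal intestine is the last segment of the salmon gut, where the lining cells take up large molecules into vacuoles. Soybean meal is known to cause an inflammation of this segment in salmonids, in which the mucosal folds shorten, the vacuoles of the lining cells disappear and leukocytes enter the tissue. The condition is known to recede when soybean meal is withdrawn. The comparison asked how far transcript levels on day 3 differed from those on day 0. No sampled fish stayed on the fishmeal diet until day 3, so diet and day of sampling cannot be told apart. The labels do not show whether the condition had begun in these fish.

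Probes were identified only by their position on the array, so that C036R023 stands for column 36 and row 23. No gene name, sequence, pathway or cell type marker could therefore be attached to a probe, and the labelled tissue could not be checked against marker genes. In a tissue sample, fewer cells of a type and less RNA per cell cannot be told apart. Values are log2(Cy5/Cy3), the level of a fish relative to the pool, with 50 added to both signals before the ratio. Of 43627 probes tested, 16583 had a median Cy5 signal of at least 200 over the 19 arrays and are called bright. The other 27044 are called dim, and the added 50 compresses their ratios. The day of sampling rests on the labels, and each p-value treats the fish as independent although they came from 2 tanks.

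Array brightness did not separate the groups beyond the spread between fish. The median Cy5 signal was 83.5 ± 19.9 on day 3 (SD, n = 10) and 73.4 ± 14.3 on day 0 (n = 9; exact permutation p = 0.230, two-sided, adjusted p = 0.652 over 6 array properties). The median Cy3 signal of the shared pool was 77.2 ± 8.34 on the day 3 arrays and 76.3 ± 5.90 on the day 0 arrays (exact permutation p = 0.801). Over all probes, pairs of day 3 arrays correlated at 0.00357 to 0.362 (median 0.185, 45 pairs), and pairs of day 0 arrays at -0.348 to 0.523 (median 0.156, 36 pairs). Pairs of a day 3 array with a day 0 array ran from -0.256 to 0.440 (median 0.136, 90 pairs). The lowest value, -0.348, was between replicates 7 and 8 of day 0, both of tank 1. Replicates 2 and 7 of day 0 stood apart from the other day 0 fish, with mean correlations to them of -0.0630 and -0.152, while those of the remaining 7 ran from 0.0949 to 0.240. Their arrays had the highest median Cy5 signals of day 0, at 91 and 97, and the lowest median Cy3 signals, at 70.5 and 67. Whether this relates to their low correlations was not tested. Results that turn on these 2 fish are given with and without them.

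No transcript level was shown to differ between day 3 and day 0. With p-values adjusted after Benjamini and Hochberg, limma called 0 of the 43627 probes at 0.05 (0%), and the smallest adjusted p was 0.956. At an unadjusted p under 0.05 there were 795 bright probes, or 4.79% of the bright probes tested, close to the 5% that this threshold gives without any difference. They comprised 507 with a higher mean on day 3 (3.06%) and 288 with a lower one (1.74%), so 63.8% of them were higher. Without replicates 2 and 7 of day 0 there were 1416 such bright probes, above that 5%. That setting was chosen after the data were seen. The dim probes with an unadjusted p under 0.05 numbered 1290 (4.77%), with 660 higher (2.44%) and 630 lower (2.33%). The share of higher probes among the bright ones depended on the scaling. It was 95.2% of 935 when arrays were centred on their median in place of loess, and 56.7% of 645 in the authors' own value table.

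The differences were small for most probes. Among bright probes, day 3 minus day 0 had a median of 0.02 on the log2 scale, and 90% of values lay between -0.25 and 0.36. Among dim probes the same range was -0.24 to 0.24, on a scale compressed by the added 50. The 95% confidence interval of a bright probe reached a median of 0.33 to each side of its estimate. It lay within 1.5-fold in either direction for 72.8% of bright probes and within 2-fold for 94.4%. An estimate beyond 2-fold occurred for 31 bright probes, 26 with a higher and 5 with a lower mean on day 3. For 0 of 43627 probes did the 10 day 3 fish and the 9 day 0 fish have values that did not overlap.

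To show what the probes nearest to a difference look like, 10 bright probes in each direction were named as those with the smallest unadjusted p among bright probes whose difference had one sign in tank 1 and tank 2. Their differences between the days and between tanks describe how they were chosen and support nothing. The adjusted p in limma was 0.956 for each of the 10 with a higher mean on day 3, and 0.956 to 1.00 for the 10 with a lower mean.

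C036R023 had the smallest p of all bright probes. In tank 1 the 5 day 3 fish were at 1.00, 0.52, 0.51, 0.71 and 0.19, and the 4 day 0 fish at 0.40, -0.88, 0.07 and 0.14. In tank 2 the 5 day 3 fish were at 1.15, 0.63, -0.06, 1.47 and 0.58, and the 5 day 0 fish at -0.21, -0.50, -0.57, -0.58 and -0.84. In tank 1 the lowest day 3 fish lay below the highest day 0 fish. The day means were 0.67 ± 0.45 on day 3 (SD, n = 10) and -0.33 ± 0.45 on day 0 (n = 9), which differ by 1.00 (standard error 0.23). The median Cy5 signal was 1674 on day 3 and 782 on day 0.

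C182R153, a fainter probe with a median Cy5 signal of 262.5, ran from -0.01 through a median of 0.49 to 1.10 on day 3, and from -0.65 through -0.33 to 0.30 on day 0. Replicate 9 of day 0 was the one day 0 fish above 0, and 7 of the 10 day 3 fish were above it. The difference of 0.85 (standard error 0.20) was 0.64 in tank 1 and 1.03 in tank 2.

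C090R127 ran from 0.11 through 0.29 to 1.14 on day 3 and from -0.54 through -0.15 to 0.22 on day 0. All 10 day 3 fish were above 0, with replicate 7 well above the rest, and 8 of them were above the highest day 0 fish. The difference of 0.60 (standard error 0.16) was 0.86 in tank 1 and 0.38 in tank 2. For C211R162 the day 3 fish ran from 0.06 through 0.46 to 1.12 and the day 0 fish from -0.42 through -0.09 to 0.58. Replicate 6 of day 0 was far above the other day 0 fish, of which the next was at 0.03, below the lowest day 3 fish.

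C182R009 ran from -0.01 through 0.42 to 1.16 on day 3 and from -1.02 through -0.43 to 0.55 on day 0. Both groups were wide, and 4 of the 10 day 3 fish exceeded the highest day 0 fish. Its difference of 0.86 (standard error 0.23) was nearly the same in both tanks, at 0.86 in tank 1 and 0.89 in tank 2. C168R018 ran from -0.25 through 0.38 to 0.89 on day 3 and from -0.72 through -0.11 to 0.17 on day 0, a difference of 0.54. In C168R018 the lowest day 3 fish, replicate 6, lay below 7 of the 9 day 0 fish.

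C159R025 was among the brighter probes, with a median Cy5 signal of 6750.5, and had the widest day 3 group of the 10. Its day 3 fish ran from -0.23 through 0.20 to 1.77 and its day 0 fish from -1.24 through -0.43 to 0.30. Replicates 7, 9 and 1 of day 3, at 1.77, 0.84 and 1.44, were well above the other 7, and the difference between the days was 0.83. C124R041 ran from 0.05 through 0.37 to 1.47 on day 3 and from -0.78 through -0.18 to 0.24 on day 0, a difference of 0.66 that was 0.69 in tank 1 and 0.62 in tank 2.

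C026R057 was the brightest of the 10, with a median Cy5 signal of 19980. Its day 3 fish ran from -0.27 through 0.43 to 1.42 and its day 0 fish from -0.53 through -0.31 to 0.41. The highest Cy5 signal, in replicate 1 of day 3, was 65298, near the top of the scanner's range, and 4 of the 19 arrays carried flag code 3 for this probe, a code found on very bright spots. C014R126 ran from -0.04 through 0.36 to 0.96 on day 3 and from -0.71 through -0.07 to 0.13 on day 0. In tank 1 its day 3 mean was 0.17 ± 0.17 (SD, n = 5) and its day 0 mean -0.41 ± 0.31 (n = 4). In tank 2 the means were 0.64 ± 0.26 on day 3 and -0.14 ± 0.33 on day 0 (n = 5 each). The tank 2 mean was higher on both days, but the day 0 fish of the tanks overlapped and tank level was not tested. The difference between days was 0.59 in tank 1 and 0.77 in tank 2.

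**Figure D1:**
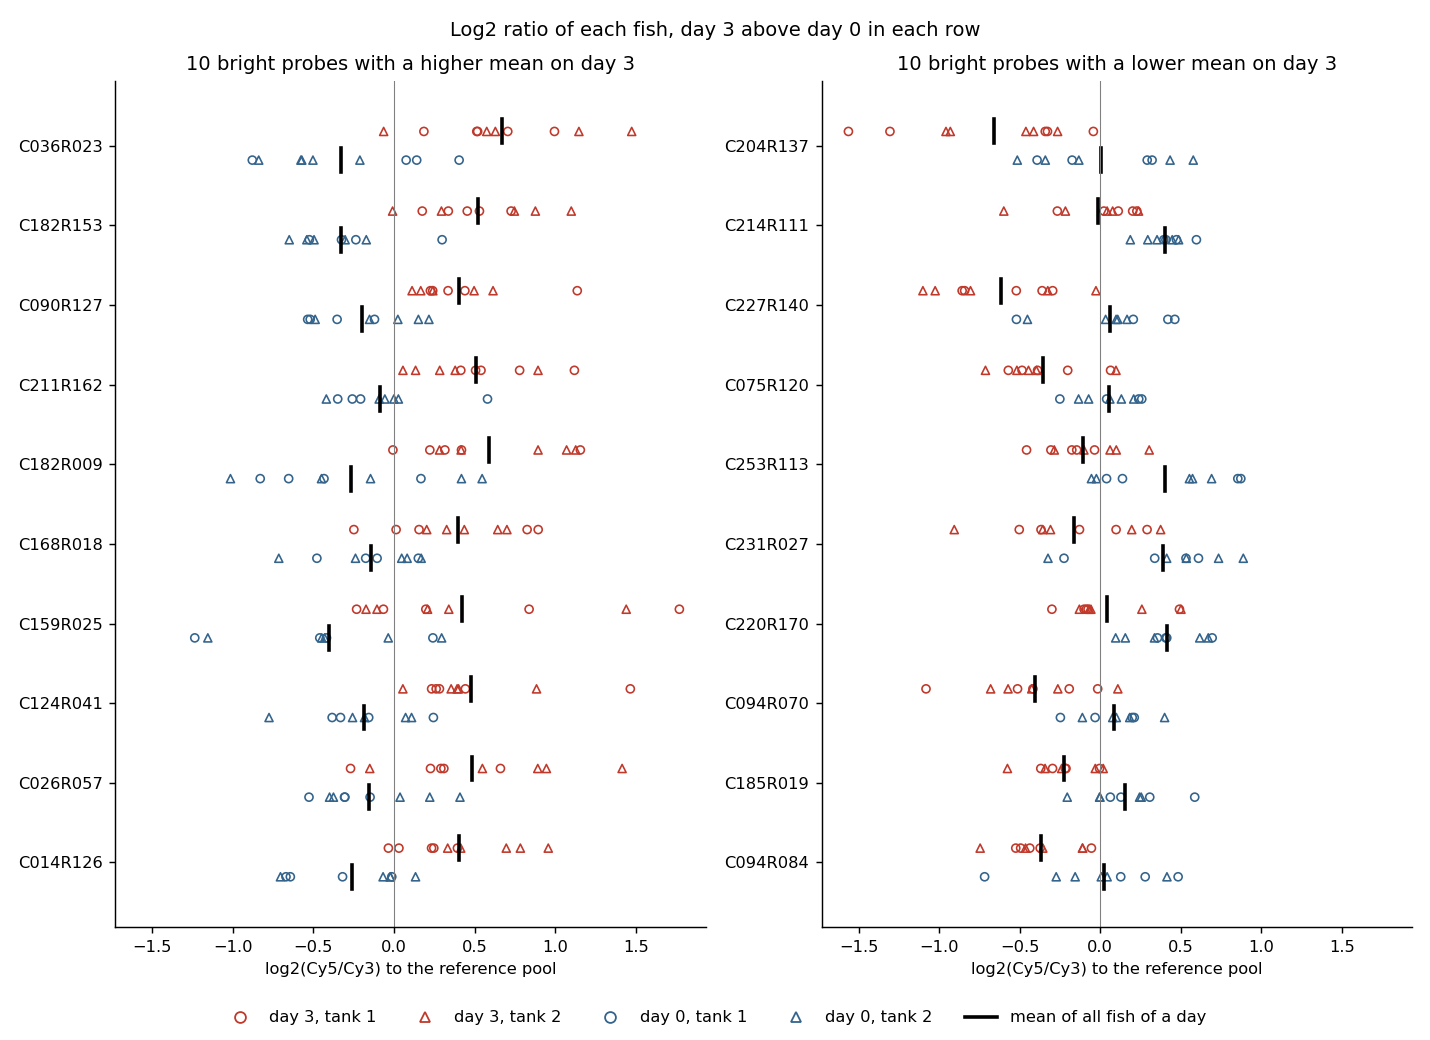
Log2(Cy5/Cy3) of each fish relative to the reference pool (horizontal axis) for the 10 bright probes with a higher mean on day 3 (left) and the 10 with a lower mean (right), day 3 in red above day 0 in blue. Circles are tank 1, triangles tank 2, and bars the mean of all fish of a day. The values of the days overlap for all 20 probes.

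Among the 10 bright probes with a lower mean on day 3, C204R137 had the smallest p and the highest signal, with a median Cy5 of 12028. Its day 3 fish ran from -1.56 through -0.44 to -0.04 and its day 0 fish from -0.51 through -0.13 to 0.58. Replicates 7 and 10 of day 3, at -1.56 and -1.31, were well below the other day 3 fish. The difference of -0.67 (standard error 0.17) was -0.73 in tank 1 and -0.61 in tank 2.

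C214R111 was the probe of the 20 with the least spread on day 0. The day 3 fish lay between -0.60 and 0.24 with a mean of -0.02 ± 0.27 (SD, n = 10), against 0.19 to 0.60 and a mean of 0.40 ± 0.12 on day 0 (n = 9). Of the 10 day 3 fish, 7 lay below the lowest day 0 fish and the other 3 just above it, at 0.20, 0.23 and 0.24. The difference of -0.42 (standard error 0.11) was -0.41 in tank 1 and -0.44 in tank 2.

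C227R140 ran from -1.10 through -0.66 to -0.03 on day 3 and from -0.52 through 0.11 to 0.46 on day 0. All 10 day 3 fish were below 0, while 7 of the 9 day 0 fish were above it. The difference was -0.67 (standard error 0.18). C075R120 ran from -0.71 through -0.42 to 0.10 on day 3 and from -0.25 through 0.06 to 0.26 on day 0. Replicates 8 and 4 of day 3, at 0.06 and 0.10, lay among the day 0 fish, and 7 of the other day 3 fish lay below all of them. C094R070 showed the same arrangement, from -1.08 through -0.42 to 0.11 on day 3 and from -0.25 through 0.10 to 0.40 on day 0.

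C253R113 ran from -0.46 through -0.12 to 0.30 on day 3 and from -0.05 through 0.55 to 0.87 on day 0. Its day 0 fish formed a higher set of 5 fish at 0.55 to 0.87 and a lower set of 4 at -0.05 to 0.14, and the lower set lay among the day 3 fish. Both sets held fish of both tanks. C231R027 had a similar day 0 pattern, with replicates 2 and 7 at -0.32 and -0.23 and the other 7 fish at 0.34 to 0.89. The difference of C231R027 was -0.55 with all fish (standard error 0.17). It ran from -0.74 to -0.45 under the alternatives run, and from -0.64 to -0.47 with 1 fish left out at a time.

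The other 3 had differences between -0.37 and -0.39. C220R170 ran from -0.30 through -0.07 to 0.50 on day 3 and from 0.10 through 0.41 to 0.69 on day 0. C185R019 ran from -0.58 through -0.23 to 0.02 on day 3 and from -0.21 through 0.13 to 0.59 on day 0. Its median Cy5 signal was higher on day 3, at 2197 against 1917 on day 0, so its lower mean is one of the normalized ratio. C094R084 ran from -0.75 through -0.41 to -0.05 on day 3 and from -0.72 through 0.04 to 0.48 on day 0, where the lowest day 0 fish, replicate 6, lay near the lowest day 3 fish.

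Of the 10 probes with a higher mean, 8 had an unadjusted p under 0.05 in both tanks, and of the 10 with a lower mean, 6 did, against 0.139% of all bright probes with one sign. The arrays lay 4 to a slide, and of the 10 slides that held fish of either day, 5 held fish of both. Within these 5 slides, which held 5 day 3 fish and 6 day 0 fish, the day 3 mean was on the named side in all 5 for 7 of the 10 higher and 6 of the 10 lower probes, and in at least 4 for all 20. In the authors' value table, the differences of the 10 higher probes ran from 0.60 to 1.04 and those of the 10 lower probes from -0.75 to -0.40. Since these values reuse the fish that chose the probes, they describe how evenly the differences were spread and add no support.

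The fish of the other days entered the choice only through the shared estimate of spread. The day means of the 10 higher probes had a median of -0.23 (day 0), -0.11 (day 1), 0.06 (day 2), 0.48 (day 3), -0.04 (day 5) and -0.21 (day 7). Those of the 10 lower probes had a median of 0.12 (day 0), 0.14 (day 1), -0.03 (day 2), -0.29 (day 3), -0.002 (day 5) and 0.15 (day 7). Day 3 was the outlying day in both sets, and days 5 and 7 lay closer to day 0 than to day 3. Since days 3 and 0 together chose the probes, this order does not show a return towards day 0, which was not tested. C182R153 was the probe of the 20 with the highest mean on day 5, at 0.35 ± 0.30 (SD, n = 10). Across the 40 fish of days 1, 2, 5 and 7, the 45 pairs of the 10 higher probes correlated at a median of 0.23 and the 45 pairs of the 10 lower probes at 0.31. The 100 pairs of one higher and one lower probe had a median of -0.27. All pairs of bright probes had a median of 0.00 and quartiles of -0.24 and 0.25. The named medians of 0.31 and -0.27 lay outside these quartiles and that of 0.23 within them. A median of a set and a quartile of single pairs are unlike measures, and other sets of 10 probes were not tested. These correlations are across fish that share slides and the pool, and are given as a description.

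Dim probes were named by the same rule, 3 in each direction. C194R024, C154R007 and C221R050 had a higher mean on day 3, with differences of 0.52, 0.42 and 0.51. Their median Cy5 signals were only 9.5, 32.5 and 35.5, well under the 50 added to both channels. For C194R024 the Cy5 signal was 0 to 33 on day 3 and -9 to 21 on day 0. The Cy3 signal of the pool at this probe was -1 to 19 on day 3 and 2 to 53 on day 0. The size of these differences depends on the offset: in the authors' table they were 2.93, 1.36 and 1.71. The 3 with a lower mean were C016R082, C225R089 and C008R148, with differences of -0.74, -0.59 and -0.90 and median Cy5 signals of 114, 117.5 and 76.5. For C016R082 the Cy3 signal of the pool was 99 to 171 on day 3 and 60.5 to 145 on day 0. The differences of C194R024 and C016R082 thus rest partly on the Cy3 signal of the pool, which is not a level of the fish. The same holds for the other dim probes named here, whose median pool signal also shifted opposite to the difference. In C154R007 and C221R050 the pool signal was 1.5 in the highest day 3 fish of each probe. C008R148 differed mainly in tank 2, where the day 3 fish ran from -1.65 to -0.12 and the day 0 fish from 0.17 to 1.16. In tank 1 its day 3 fish ran from -0.58 to 0.98 and its day 0 fish from -0.46 to 0.86. The tank 2 difference of C008R148 minus that of tank 1 was -1.25 (limma, unadjusted p = 0.00716, adjusted p = 1.00).

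Each tank was next set against its own day 0 fish. In tank 1 the adjusted test in limma called 0 probes (smallest adjusted p = 1.00), and 397 bright probes (2.39%) had an unadjusted p under 0.05, with 263 higher (1.59%) and 134 lower (0.808%) on day 3. In tank 2 it also called 0 (smallest adjusted p = 0.245), and 446 bright probes (2.69%) had an unadjusted p under 0.05, with 275 higher (1.66%) and 171 lower (1.03%). Of these, 23 bright probes (0.139%) were in both lists with the same sign, which is 5.79% of the tank 1 list and 5.16% of the tank 2 list. They comprised 15 higher and 8 lower, and 3 more were in both lists with opposite signs. The shares of both lists multiplied give 10.7 bright probes in both, but probes on the same fish are not independent. The count of 23 moved with the fish used, to 10 when replicate 1 of day 3 was left out, 11 when replicate 8 of day 0 was, 41 when replicate 4 of day 3 was, 36 when replicate 7 of day 0 was and 14 when replicate 5 of day 0 was. Leaving out both replicate 2 and replicate 7 of day 0 gave 63. Dim probes gave 32 with the same sign (0.118%) and 32 with opposite signs.

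Over all bright probes, the differences of the tanks had the same sign for 60.3%, and correlated at 0.293 across probes. Over the 31752 ways to divide the fish of each tank into groups of these sizes, its two-sided exact permutation p was 0.310. Across dim probes the correlation was 0.0396, with 51.0% of the same sign (exact permutation p = 0.456). Without replicates 2 and 7 of day 0 the correlation across bright probes was 0.53, with an exact permutation p of 0.00907. That setting was chosen after the data were seen and takes fish from day 0 only.

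**Figure D2:**
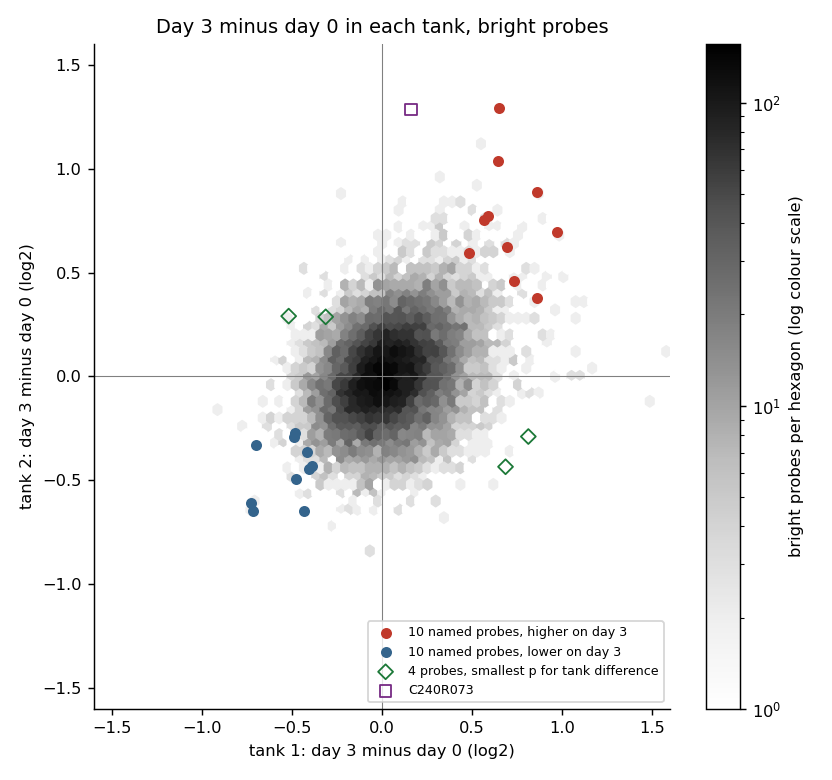
Day 3 minus day 0 on the log2 scale in tank 1 (horizontal axis) and tank 2 (vertical axis) over the bright probes, shaded by their number per hexagon on a log colour scale, with 30 bright probes outside the axis limits of 1.6. The named probes lie at the edges of a cloud that correlated at 0.293, and C240R073 is far above 0 in tank 2 alone.

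Among bright probes, the smallest p in tank 2 was that of C240R073, with a median Cy5 signal of 11084. In tank 2 the day 3 fish were at 1.15, 0.65, 1.03, 0.53 and 1.08, and the day 0 fish at 0.00, 0.69, -0.78, -0.50 and -1.40. Only replicate 2 of day 0 reached into the range of the day 3 fish. In tank 1 the day 3 fish were at -0.68, -0.01, 0.16, -0.02 and 0.28 and the day 0 fish at -0.02, 0.30, -0.78 and -0.35, with full overlap. The difference was 1.29 in tank 2 (standard error 0.27, limma adjusted p = 0.245) and 0.16 in tank 1 (standard error 0.28). The tank 2 difference minus that of tank 1 was 1.13, with an unadjusted p of 0.00524 and an adjusted p of 1.00 in limma. Without replicate 2 of day 0 the tank 2 difference of C240R073 was 1.56 with an adjusted p of 0.00887 in limma. That fish was the highest of day 0 in tank 2, so leaving it out raises the difference. With all fish kept and array quality weights the tank 2 difference was 1.41 with an adjusted p of 0.0393 in limma. Those weights gave replicate 2 of day 0 the lowest weight of the day 0 fish of tank 2, 0.74, so that fish counted for less there too. Of the 33 alternatives run for this difference, 3 passed the adjusted threshold and 30 did not. With 1 fish left out at a time, the difference ran from 1.03 to 1.56.

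The other bright probes named for tank 2 by their p were C036R023, described above, and C153R128 and C166R161 in the other direction. C153R128 averaged -0.47 ± 0.61 on day 3 and 0.52 ± 0.40 on day 0 in tank 2 (SD, n = 5 each), and 0.16 ± 0.35 on day 3 (n = 5) and 0.06 ± 0.52 on day 0 (n = 4) in tank 1. C166R161 ran from -0.58 to 0.02 on day 3 and from 0.43 to 0.80 on day 0 in tank 2. How often the days separate within a tank was not counted over all bright probes. In tank 1 the day 0 fish of C166R161 ran from -0.94 to 0.87 and spanned all day 3 fish.

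Among bright probes in tank 1, the smallest p values belonged to C090R127, described above, and C168R138 with a higher mean, and to C220R142 and C056R081 with a lower one. C168R138 averaged 0.51 ± 0.82 on day 3 (SD, n = 5) and -0.56 ± 0.52 on day 0 (n = 4) in tank 1, where replicate 7 of day 3 was at 1.75. C220R142 ran from 0.01 to 0.41 on day 3 and from 0.74 to 1.25 on day 0 in tank 1. In tank 2 its day 3 fish ran from 0.09 to 0.46 and its day 0 fish from -0.34 to 0.70, where replicate 5 was the one day 0 fish below 0. C056R081 averaged -0.48 ± 0.31 on day 3 (n = 5) and 0.18 ± 0.37 on day 0 (n = 4) in tank 1, but -0.28 ± 0.19 on day 3 and -0.26 ± 0.19 on day 0 in tank 2 (n = 5 each).

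The direct test of whether the difference depended on the tank called 0 probes in limma (smallest adjusted p = 1.00), with 191 bright probes (1.15%) at an unadjusted p under 0.05. Of these, 62 had the larger value in tank 2 (0.374%) and 129 in tank 1 (0.778%). C007R087, with the smallest p of the bright probes, averaged 0.26 ± 0.43 on day 3 and -0.55 ± 0.50 on day 0 in tank 1, and -0.14 ± 0.14 on day 3 and 0.15 ± 0.41 on day 0 in tank 2. C094R163 had a similar arrangement, with a difference of 0.68 in tank 1 and -0.44 in tank 2. C068R006 and C260R108 were arranged the other way, with differences of -0.52 and -0.31 in tank 1 and 0.29 and 0.29 in tank 2. In all 4 probes the day 0 means of the tanks lay at least as far apart as their day 3 means.

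**Figure D3:**
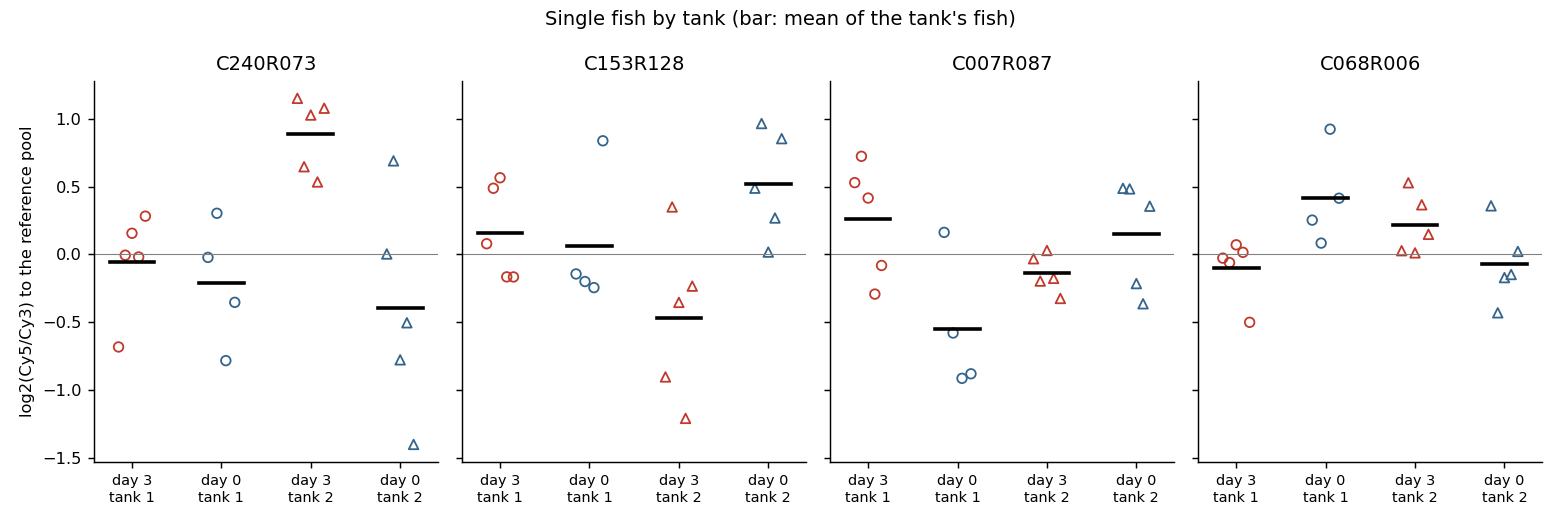
Log2(Cy5/Cy3) of each fish relative to the reference pool (vertical axis) by day and tank for C240R073, C153R128, C007R087 and C068R006, with bars at the mean of the 4 or 5 fish of a tank. C240R073 and C153R128 differ between the days in tank 2, and C007R087 and C068R006 have day differences of opposite sign in the tanks. None passed the adjusted test with all fish weighted equally.

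The bright probes with the largest differences were not those with the smallest p. Of the 31 beyond 2-fold, the 6 largest in size were taken, after their values were seen. C121R122 had the largest, at -2.25 (standard error 0.98, limma unadjusted p = 0.0259, adjusted p = 1.00). In tank 1 its day 3 fish were at 0.42, -3.96, -3.49, -4.12 and 0.93 and its day 0 fish at -3.52, 0.62, 0.97 and 0.89. In tank 2 its day 3 fish were at -3.95, -3.27, -3.91, -3.72 and 0.45 and its day 0 fish at 0.96, 0.69, 0.52, 0.63 and -3.69. Fish were thus at one of 2 levels, and 7 of 10 day 3 fish and 2 of 9 day 0 fish were at the low one.

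This split of C121R122 was present on every day. Over the 59 fish of all days there was no value between -3.07 and 0.05, a gap of 3.12 log2 units. Fish below the gap numbered 2 of 9 (day 0), 5 of 10 (day 1), 3 of 10 (day 2), 7 of 10 (day 3), 4 of 10 (day 5) and 4 of 10 (day 7). Their Cy5 signals were at most 157, against at least 1646 above the gap, while the Cy3 signal of the pool stayed between 997 and 1804. The difference between day 3 and day 0 was therefore one of how many fish were at each level.

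C118R004, with a difference of -1.72 (standard error 0.81), also had fish on both sides of a wide gap. Its gap ran from -3.42 to -0.97, and the fish below it numbered 1 of 9 (day 0), 1 of 10 (day 1), 1 of 10 (day 2), 4 of 10 (day 3), 3 of 10 (day 5) and 2 of 10 (day 7). Cy5 signals were at most 161 below the gap and at least 1360 above it. Fish above the gap also differed among themselves. On day 0, replicates 2, 3, 4, 5 and 7 were at 0.89 to 1.29. On day 3, replicate 10 was at 1.12 and the other fish above the gap were at -0.09 to 0.40. The counts below the gap thus do not hold the whole difference of C118R004. Of the 4 low fish of day 3, 3 were of tank 2, and the 1 low fish of day 0 was of tank 1. Across the bright probes, 45 (0.271%) had a gap of more than 1 log2 unit with at least 5 of the 59 fish on each side. Among the 31 bright probes with differences beyond 2-fold there were 4 such probes, or 12.9%. Choosing probes by the size of a difference favours those with a wide spread between fish, so the 2 shares are a description only.

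C173R048, C233R097, C245R084 and C068R097 had higher means on day 3, with differences of 2.13, 1.77, 1.67 and 1.5. The last 2 of these probes were near the top of the scanner's range in some fish, so the sizes and ranks of their differences are not exact. C173R048 was at 1.26, 0.99, 1.52, 0.97 and 1.29 in the day 3 fish of tank 2 and at -0.71, 0.82, -3.04, -2.97 and -3.71 in its day 0 fish. In tank 1 both days spanned nearly the whole range, from -4.37 to 1.04 on day 3 and from -4.29 to 1.27 on day 0. C233R097 ran from -4.12 through 0.23 to 2.56 on day 3 and from -2.78 through -2.01 to -0.78 on day 0. The day 3 fish of C233R097 were far apart (SD 2.04) beside those of day 0 (SD 0.66).

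C245R084 and C068R097 were among the brightest probes, with median Cy5 signals of 36413 and 23823. C245R084 ran from -4.53 through 0.08 to 0.98 on day 3 and from -4.68 through -2.48 to 0.80 on day 0. C068R097 ran from -3.35 through 0.25 to 1.09 on day 3 and from -3.51 through -2.33 to 0.65 on day 0. The highest Cy5 signal of any probe on the 19 arrays was 65441. C245R084 reached at least 98% of it, a limit chosen after the signals were seen, in 4 day 3 fish and 1 day 0 fish, and C068R097 in 2 day 3 fish and 0 day 0 fish. Signals so near the top may be saturated, so the log ratios of those fish are not exact. Flag code 3 was present on 11 of the 19 arrays for C245R084 and on 5 for C068R097.

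Some of these 6 probes moved together from fish to fish outside the days compared. Of their 15 pairs, 6 had an adjusted permutation p under 0.05 and 9 did not. Correlation was common among bright probes, since all their pairs had quartiles of -0.24 and 0.25 over the same 40 fish. The share of all bright pairs that would pass this test was not counted, so the count of 6 is not shown to be high for bright probes. Among the 40 fish of days 1, 2, 5 and 7, C245R084 and C068R097 correlated at r = 0.971 (permutation p = 1e-05, the lowest possible with 100000 permutations) and rho = 0.97 (permutation p = 1e-05), with adjusted p = 5e-05 over 15 pairs for both. Without the 2 fish farthest from the median, r was 0.970. The Cy5 signal was that near the top in 3 of the 40 fish for C245R084 and in 4 for C068R097. C173R048 correlated with C245R084 at r = 0.848 and rho = 0.844, and with C068R097 at r = 0.861 and rho = 0.850, with the same adjusted permutation p of 5e-05 for each value. Without the 2 farthest fish both were at r = 0.83. C121R122 and C118R004 correlated at r = 0.225 and rho = 0.289 (permutation p = 0.165 and 0.0706, adjusted p = 0.309 and 0.151; r = 0.172 without the 2 farthest fish). C233R097 correlated less closely with C173R048 (r = 0.420, rho = 0.420, adjusted permutation p = 0.0176 and 0.0191, r = 0.309 without the 2 farthest fish). With C245R084 it correlated at r = 0.567 and rho = 0.559 (adjusted permutation p = 0.00069 and 0.00101, r = 0.494 without the 2 farthest fish). With C068R097 it correlated at r = 0.578 and rho = 0.536 (adjusted permutation p = 0.000525 and 0.00132, r = 0.473 without the 2 farthest fish). The other 8 pairs, each of C121R122 or C118R004 with one of the 4 higher probes, ran from r = -0.23 to r = 0.16. The files do not show whether probes that move together report the same transcript.

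**Figure D4:**
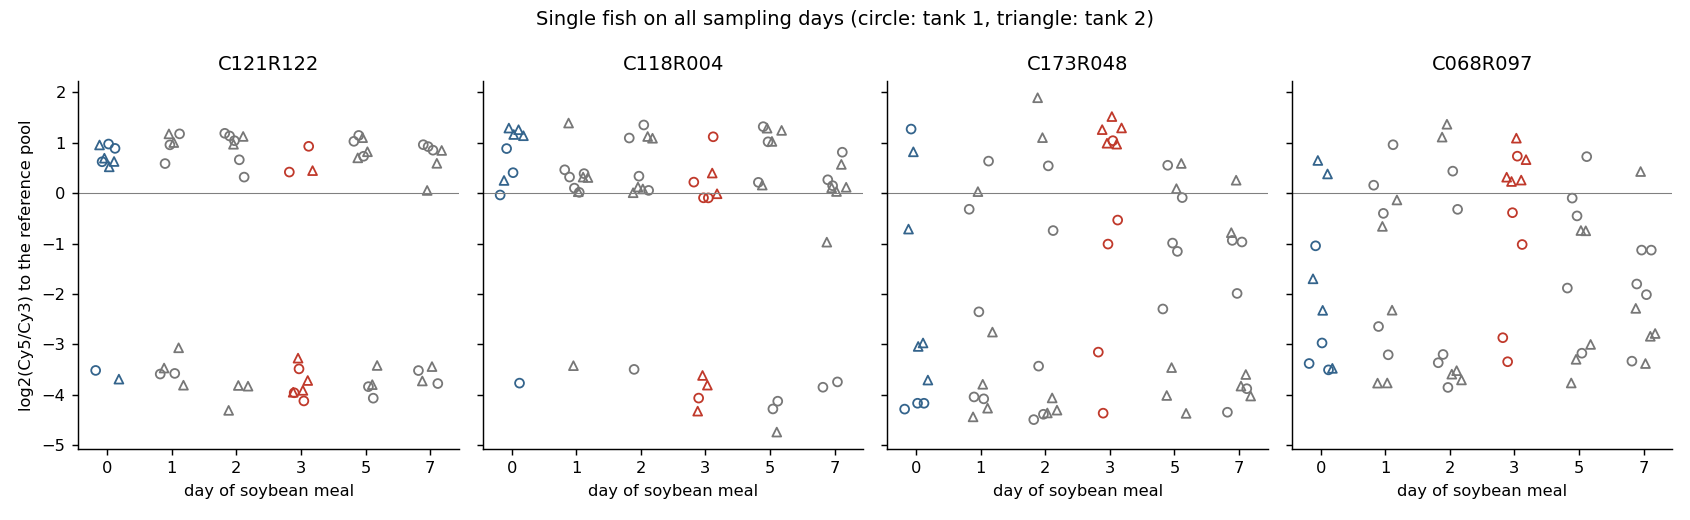
Log2(Cy5/Cy3) of each fish relative to the reference pool (vertical axis) on each sampling day (horizontal axis) for C121R122, C118R004, C173R048 and C068R097, with day 0 in blue, day 3 in red, other days in grey, circles for tank 1 and triangles for tank 2. C121R122 and C118R004 have fish on both sides of a wide gap on each of the 6 days.

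Fish of day 3 were more alike than fish of day 0 in the bright probes, but not beyond what splits of the 19 fish gave. The median standard deviation between fish was 0.295 on day 3 and 0.344 on day 0, and it was lower on day 3 for 64.9% of bright probes. The summed variance on day 3 was 0.653 times that on day 0 (exact permutation p = 0.101, two-sided, 92378 splits). In dim probes the ratio was 0.997 (exact permutation p = 0.973). For the bright probes the log2 of the ratio was -0.61 with all fish and 0.13 without replicates 2 and 7 of day 0 (exact permutation p = 0.586), so the sign turned on those 2 fish. The log2 ratio was -0.26 without replicate 7 of day 0 alone. It passed 0.05 without replicate 7 of day 3 (-0.72, exact permutation p = 0.0402), replicate 3 of day 0 (-0.69, exact permutation p = 0.0479) or replicate 9 of day 0 (-0.70, exact permutation p = 0.0439).

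The root mean square deviation of a fish from the other fish of its day, over bright probes, ran from 0.350 to 0.513 on day 3 (median 0.388) and from 0.385 to 0.807 on day 0 (median 0.445). Replicate 7 of day 3 had the highest value of its day, 0.513, while replicates 7 and 2 of day 0 were above every day 3 fish at 0.807 and 0.615. The other 7 day 0 fish, at 0.385 to 0.457, lay within the range of the day 3 fish. By day, the median standard deviation of bright probes was 0.344 (day 0), 0.339 (day 1), 0.368 (day 2), 0.295 (day 3), 0.353 (day 5) and 0.372 (day 7). Day 3 had the lowest of the 6 values, and its difference from days other than day 0 was not tested.

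**Figure D5:**
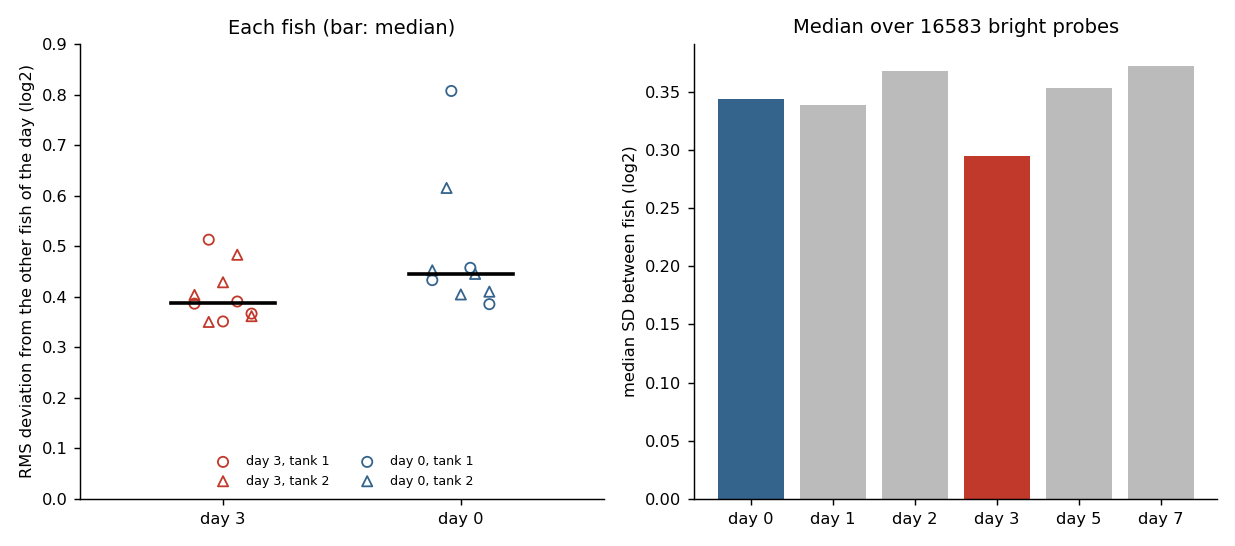
Left, the root mean square deviation of each fish from the other fish of its day over 16583 bright probes (log2 units, vertical axis), with bars at the medians of 0.388 on day 3 and 0.445 on day 0. Right, the median standard deviation between fish of a day over the same probes, which was lowest on day 3.

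The part of the variation among the 19 fish that lay between day 3 and day 0 was 5.66% over bright probes (exact permutation p = 0.347) and 5.46% over dim probes (exact permutation p = 0.465). Over all probes it was 5.56% with an exact permutation p of 0.364, and 9.37% with an exact permutation p of 0.0260 without replicates 2 and 7 of day 0. Without those 2 fish limma also gave 1 probe past the adjusted threshold, the dim C088R058, at a difference of 0.64 (standard error 0.11, adjusted p = 0.0109). With all fish its difference was 0.44, and its median Cy5 signal was 18.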

How the data were processed

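Per the file headers, the deposited scanner files hold Cy5 and Cy3 intensity as background-corrected spot medians, and the authors also deposited 1 table of log2 values. Their background correction and normalization were not given in the sources used here. Set against the scanner files, over the 14678 probes whose Cy5 and Cy3 signals exceeded 100 on every array, each table column matched its own array best (r = 0.950 to 0.996, others at most 0.839), as log2(Cy5/Cy3) centred per probe, with column medians of -0.0232 to 0.0252. No dyes were swapped. Other deposited columns were flag codes, per the file headers, without a key. Control spots (1531 of 45220) and 62 probes with code 1 were left out, and codes 2 (6.13% of values) and 3 (1.95%) were kept.

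Signals below 0 (1.72% in Cy5, 0.984% in Cy3) became 0, 50 was added, and log2(Cy5/Cy3) was normalized by loess within arrays (span 0.3). Day means, and day by tank means, were fitted with lmFit and eBayes in limma 3.58.1 (R 4.3.3) to 59 arrays, which share 1 estimate of spread. The array labelled day 1 with tank 0 entered no fit. Its tank is not one of the design, and whether it is a fish of day 0 could not be told, so the day 0 group may lack a member. Benjamini-Hochberg adjustment covered 43627 probes. The number of arrays limits the precision. Single values were tested over all splits of the fish. Code was tested on simulated data. Named probes were those with the smallest p and the same sign in both tanks (10 bright and 3 dim per direction), plus 2 bright per direction for each tank and for the tank difference. Members, rules and lists were chosen with earlier results of these data known. Gene lists and cell type markers gave no result, since no table names the probes. Alternatives covered background, offset, normalization, the authors' table, the bright limit, slide, position, weights, replicate number and single fish.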

Additional observations from a re-analysis of the deposited data

Results flagged for a closer look

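In 82 sets of values searched within days, 3 had a single fish far from the others, where chance gives about 4.1. For C182R153, replicate 9 of day 0 was at 0.298, above the next highest day 0 fish at -0.172. For C090R127, replicate 7 of day 3 was at 1.14, above the next day 3 fish at 0.614. For C211R162, replicate 6 of day 0 was at 0.58, above the next day 0 fish at 0.0269. The search finds single fish and misses pairs such as replicates 2 and 7 of day 0.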

How the results depend on the processing

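The adjusted count for day 3 minus day 0 was 0 under each alternative run but one, as it was in tank 1 and for the tank difference. Without replicates 2 and 7 of day 0 together it was 1 over all probes and 1 among dim probes. In tank 2 it was 1 with array quality weights (C240R073, 1.41, limma adjusted p = 0.0393), 1 without those 2 fish (adjusted p = 0.00675), and 0 to 1 with 1 fish left out. Of the 16583 bright probes, 795 (4.79%) had an unadjusted p under 0.05 in the main fit in limma. Alternatives ran from 523 with slide as a fixed block to 1557 with the first principal component (26.9% of the variation) removed. The count was 1396 with array weights and 1416 without the 2 fish. The counts of 1396, 1416 and 1557 exceed the 5% that this threshold gives without any difference. Smaller counts above that 5% included 1015 with the 19 arrays alone, 968 without replicate 4 of day 3, 935 with median centring and 915 with position on the slide. Other counts lay below it, such as 770 with slide as a random block and 645 in the authors' table. The 44 named results were each run under 33 to 35 alternatives, 1513 runs in total. The sign reversed in 0 runs, and 3 runs passed the threshold, all for C240R073 in tank 2. The probes were chosen by p or size of difference in these same fish, so a kept sign adds no support.

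Bright probes with the same direction in both tanks, 23 with all fish, numbered 40 with the 19 arrays alone, 40 with position on the slide, 62 with array weights, 15 at a bright limit of 500, 71 with the first component removed, 63 without the 2 fish and 10 to 41 with 1 fish left out. The log2 ratio of spread, -0.61, was -0.72 to -0.26 with 1 fish left out (exact permutation p down to 0.0402). It was 0.13 without the 2 fish and 0.19 with the first component removed (exact permutation p = 0.403), both reversed. The share between days was 9.37% without the 2 fish and 7.02% with the first component removed (exact permutation p = 0.0269). The correlation between tanks was 0.53 and 0.31 under those settings (exact permutation p = 0.00907 and 0.0430). Both settings were chosen after seeing the data, and the cause was not tested. They are not independent of each other. Replicates 2 and 7 of day 0 had the highest scores of the 19 fish on the first component, 65.0 and 89.4, with the next at 32.4.

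Replicate numbers name separate fish. Same-numbered fish of the days correlated in their deviations at -0.20 to 0.22 over 9 pairs (median 0.10), 5 of them over 0.1, and 1 of 9 correlated best with its own number, so the numbers do not pair the fish. With a replicate block the count was 0 adjusted and 847 bright probes unadjusted. For dim probes the signal limits what could be seen.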
